A study of Mus musculus with 8 samples.

Results

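Natural killer (NK) cells were examined in the heart of recipient mice that had been given bone marrow of a donor with stroke or of a control donor. They are lymphocytes that kill infected or altered cells by releasing granules of perforin and granzymes, and that secrete interferon gamma and chemokines. Members were 164 of the 5324 heart barcodes that passed the filters (3.08%), from a matrix of 11130 barcodes, and all of them were chosen by their own counts of unique molecular identifiers (UMIs). A barcode needed at least 200 genes, at most 10% mitochondrial UMIs, at least 10 hashtag UMIs and at least 80% of those from the heart hashtag. It also needed at least 2 UMIs of Ncr1, Klrb1c and Klre1 together, which encode NK receptors, and at least 5 of Gzma, Nkg7 and Ccl5 together, which are effector genes. No more than 5 UMIs of the macrophage genes C1qa, C1qb, Apoe, H2-Aa and Lyz2, no UMI of Cd79a and no more than 1 of Cd3d, Cd3e and Cd3g were allowed. The levels of these 15 genes are therefore given as descriptions and were not tested.

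The study sorted CD45+CD11b+ leukocytes from blood and heart of 4 Mx1Cre:c-Mybfl/fl recipients and profiled them by droplet single-cell RNA sequencing that counts transcripts at their 3′ end. Mx1 drives Cre in response to interferon, and loss of c-Myb removes the blood-forming cells of the host. All 4 recipients carried this genotype and all received marrow, 2 from control donors and 2 from stroke donors. Strain of the donors, age, the time since transplantation and the way stroke was made are not given in the sources used here, nor is the share of host NK cells that remained. A hashtag antibody marked the organ, and cells of both organs of 1 animal then went into 1 library, so that both organs of a mouse shared the droplets, the amplification and any free RNA, whereas donor groups never shared a library. Library suffixes 1 to 4 were matched to mice by the number in the submitters' descriptions, which is an assumption. The sort was set for CD11b+ cells, which among NK cells are the mature ones. How strictly it held was not tested, and B cells were also found in the sorted material, as described below. Itgam, the gene of CD11b, had 327, 405, 406 and 308 CPM (UMIs scaled to a common library total) in heart NK cells and 426, 402, 337 and 424 CPM in blood NK cells of control mice 1 and 2 and stroke mice 1 and 2. These values follow the same order of mice throughout: control 1, control 2, stroke 1 and stroke 2.

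The heart held 30, 48, 60 and 26 NK cells in the 4 mice, with summed UMIs of 117706, 137676, 160307 and 84216 and medians of 3890.5, 2758.5, 2538 and 2954.5 UMIs per cell. Blood NK cells, taken with the same limits and the blood hashtag, numbered 94, 121, 194 and 64, with 353136, 392839, 635574 and 216924 UMIs. Control mouse 1 stood apart from the other mice. Its heart NK cells had 20 UMIs of the transgene agfp against 519, 780 and 358 in the others, 80 UMIs of the transgene kgfp against 0, no Xist UMI against 61, 48 and 53, and 8 UMIs of the Y-linked Ddx3y against 0. The labels do not say what the 2 transgenes mark, and both were kept out of every test with the sex-linked genes. Without that mouse 183 genes were called between organs, as described below. Some genes were then also called between donor groups and in the interaction, with control mouse 2 as the only control.

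The name NK cell was checked against genes that the limits did not use. Prf1, which encodes perforin, was detected in 79.3%, 79.2%, 81.7% and 68% of heart NK cells after each cell had been thinned to 1000 UMIs, and in 0.125% to 0.877% of heart barcodes with at least 20 UMIs of C1qa, C1qb and C1qc, referred to here as C1q macrophages. Those macrophages had medians of 5047 to 6346 UMIs before thinning. Eomes, a transcription factor of NK cells, had 224, 224, 228 and 189 CPM, and Tbx21, which encodes T-bet, had 456, 303, 304 and 272 CPM. Of 15 markers of type 1 innate lymphoid cells, a related tissue-resident lineage, Cd200r1 and Tmem176b were at 0 in all 4 hearts, Itga1 had 34.4, 0, 31.7 and 47.3 CPM, and only Rgs1 was abundant enough to be tested between organs. The list summed to 1481, 578, 678 and 722 CPM in heart against 223, 158, 117 and 178 CPM in blood. Rgs1, its most abundant member, made up most of each heart sum, with values given below. Single cells held 19 of the 23 Inpp4b UMIs of control mouse 1 and all 15 of stroke mouse 2. Rgs1 was called higher in the heart (4.02 ± 0.21 on the log2 scale, edgeR adjusted p = 7.36e-19). It passed the filter through its heart counts, so that its direction is fixed in part by the filter.

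Marker lists of other cell types had these levels in the gate. The 15 macrophage markers summed to 129, 238, 374 and 225 CPM in heart and 88.7, 186, 242 and 296 CPM in blood, and Mrc1 and Fcgr1 were at 0 in the heart. The 11 T cell markers summed to 741, 527, 393 and 663 CPM in heart and 523, 442, 411 and 451 CPM in blood, above the macrophage sums, and Trbc1, Trbc2 and Lef1 were their most abundant members. Trbc1, which encodes a constant segment of the T cell receptor beta chain, had a UMI in 56.7%, 35.4%, 28.3% and 38.5% of heart NK cells, and after thinning in 27.6%, 12.5%, 13.3% and 16% of them and 12.9%, 15.7%, 15.3% and 14.1% of blood NK cells. Cd4, Cd8a, Cd8b1 and Cd5 were at 0 in heart NK cells, and Cd3e and Cd79a were held at or near 0 by the gate itself. B cell markers summed to 103, 43.4, 12.7 and 154 CPM in heart and 88.7, 55.3, 53.1 and 114 CPM in blood, with Pax5 at 0 in the heart. Ighm, the immunoglobulin heavy chain gene, had a UMI in 23.3%, 6.25%, 3.33% and 23.1% of heart NK cells, and in 56.2% to 66.4% of C1q macrophages of the same libraries. The part of RNA from other cell types in the results below was not tested. The 10 neutrophil markers summed to 3048, 65.0, 95.1 and 59.2 CPM in heart, and a single barcode of control mouse 1 held 167 of its 170 S100a9 UMIs. Leaving out barcodes with neutrophil transcripts gave 172 genes called between organs. Dendritic cell markers summed to at most 14.5 CPM and fibroblast markers to at most 14.5 CPM. No barcode sequence of a member occurred in another library, although 28 barcodes of the whole matrix had such a sequence.

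Values close to the limits show how the gate was filled. Macrophage UMIs numbered 0 in 108 of the 164 cells, 1 in 42, 2 in 9 and 3 or 4 in 5, so that no member lay at the limit of 5. The limit removed 14 heart barcodes that met all other conditions, 2, 5, 4 and 3 per mouse, and these carried 10 to 517 macrophage UMIs with a median of 310.5. Their median totals per mouse of 8352.5 to 13539.5 UMIs were above those of the members. The NK receptor sum was 2 in 4 members and 3 in 6, with a median of 10, and the effector sum had a minimum of 7 and a median of 122.

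NK cells made up 4.09%, 3.05%, 3.62% and 1.91% of heart barcodes in the 4 mice, with exact Clopper-Pearson 95% intervals of 2.77% to 5.78%, 2.26% to 4.02%, 2.77% to 4.64% and 1.25% to 2.79% that cover counting error only. The same gate held 8.26%, 12.3%, 14.1% and 4.89% of blood barcodes. The heart share was below the blood share in each mouse, with a mean of heart minus blood of -6.71 percentage points (3.17 ± 0.94% against 9.88 ± 4.12%, SD, n = 4), and an exact two-sided sign-flip test gave p = 0.125, the smallest value 4 mice allow. Between donor groups the heart share was 3.57 ± 0.74% in control mice and 2.77 ± 1.21% in stroke mice (SD, n = 2), a difference smaller than the spread within the stroke group, with p = 0.667 in an exact two-sided permutation test that cannot go below 0.333. Without stroke replicate 2 the difference turned to 0.05 percentage points, with stroke higher. Shares were taken after a sort, and fewer NK cells cannot be told apart from more cells of other types.

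**Figure D1:**
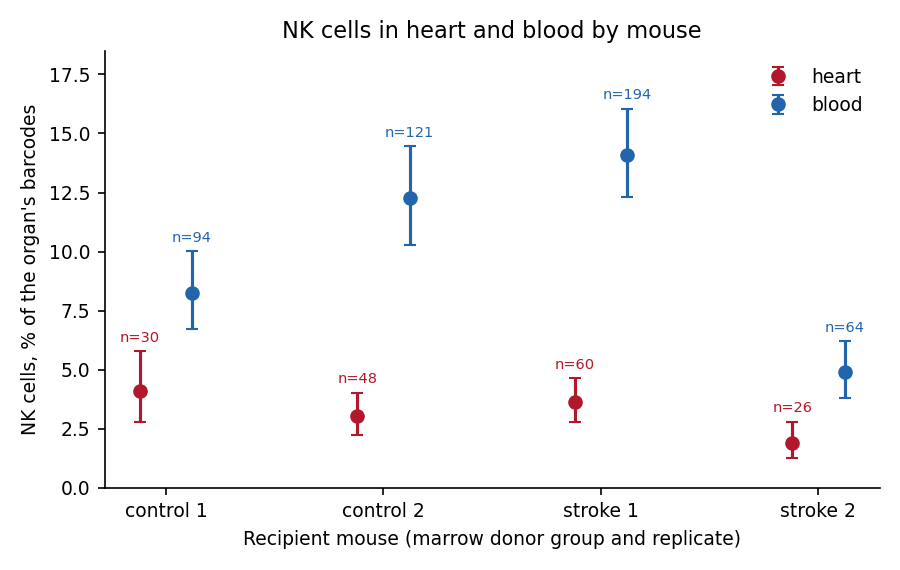
NK cells as a percent of each organ's barcodes by recipient mouse, with exact 95% binomial intervals and the number of NK cells above each point. Each heart value (red) lies below the blood value (blue) of its mouse, and the 2 stroke hearts, 3.62% and 1.91%, lie on both sides of the control value of 3.05%.

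Heart NK cells differed from blood NK cells of the same animals in 183 of 3383 genes tested (5.41%), with 147 higher (4.35%) and 36 lower (1.06%) in the heart, in a quasi-likelihood test of edgeR on UMIs summed per mouse and organ with the mouse as a block and a Benjamini-Hochberg threshold of 0.05. At an unadjusted p under 0.05 there were 550 genes (16.3%). All 4 heart values lay above all 4 blood values in 186 genes (5.5%) and below them in 167 (4.94%). The largest increases among the 147 higher genes were in the immediate early genes Nr4a3, Fos, Dusp1 and Nr4a2, and the 147 also included Ccl3 and Ccl4, perforin, the interferon gamma gene, Irf8 and the beta 2 chain of the interleukin 12 receptor. Genes lower in the heart were shifted less, and the largest named falls were in Gm44148, Gm16341 and Cmah. Of the 183 genes called without control replicate 1, 145 were among those above. DESeq2 called 79 genes, all of them among the 183, and 76 were higher in the heart. Of the 57 named genes with an adjusted p in DESeq2, 26 were not called by it, and these included 21 of the 22 named decreases, so that the calls of lower genes below rest on edgeR.

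Immediate early genes are switched on within minutes of a stimulus without new protein synthesis, and many encode transcription factors or feedback inhibitors. All 11 tested genes of a list of 23 were called higher in heart NK cells, with a median log2 fold change of 1.67 against -0.01 over all genes tested. The other 12 were too low for the filter and are not part of that count. The filter kept a gene that was high enough in 1 organ. Genes almost absent from blood, such as Fos, Dusp1 and Nr4a3, could enter only by being high in the heart. The result of 11 of 11 and the list median are therefore fixed in part by the filter. All 23 genes together summed to 6424, 4754, 6176 and 5149 CPM in heart and 1410, 1402, 1501 and 1350 CPM in blood. Nr4a2, an orphan nuclear receptor, had 646, 499, 463 and 746 CPM in the 4 hearts and 17.2, 15.1, 10.9 and 31.9 CPM in the blood. The 2 organs did not overlap, and the lowest heart value was far above the highest blood value. The log2 fold change of Nr4a2 was 5.04 ± 0.22 (SE), with an adjusted p of 1.59e-21. Junb, a subunit of the AP-1 transcription factor, had 1266, 766, 1230.1 and 1349 CPM in heart and 120.1, 126, 117 and 164 CPM in blood, again without overlap. The log2 fold change of Junb was 3.13 ± 0.14 (SE), with an adjusted p of 5.31e-21.

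Fos, another AP-1 subunit, had 155, 123, 298 and 189 CPM in heart NK cells and 2.86, 5.03, 4.69 and 9.12 CPM in blood NK cells (5.23 ± 0.39 on the log2 scale, adjusted p = 9.34e-14). For Dusp1, a phosphatase that switches off mitogen-activated kinases, the heart values were 284, 159, 241 and 308 CPM and the blood values 5.72, 0, 12.5 and 4.56 CPM (5.08 ± 0.35, adjusted p = 6.17e-15). Nr4a3, a relative of Nr4a2, had 353, 101, 57.1 and 71.01 CPM in heart against 0, 5.03, 1.56 and 4.56 CPM in blood (5.46 ± 0.56, adjusted p = 6.2e-10). Its heart value in control mouse 1 was the highest of the 4 mice, and 11 of the 41 UMIs there came from a single cell. The remaining 6 called members rose by smaller amounts: Ier2 by 1.67 ± 0.17, Btg2 by 1.45 ± 0.15, Ier5 by 1.37 ± 0.27, Klf6 by 1.34 ± 0.17, Dusp2 by 1.24 ± 0.17 and Jund by 0.96 ± 0.12 on the log2 scale (edgeR, adjusted p of 2.94e-10, 4.14e-10, 0.00044, 9.95e-08, 7.97e-07 and 1.46e-07). Each of the 11 lay higher in the heart in 4 of 4 mice.

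**Figure D2:**
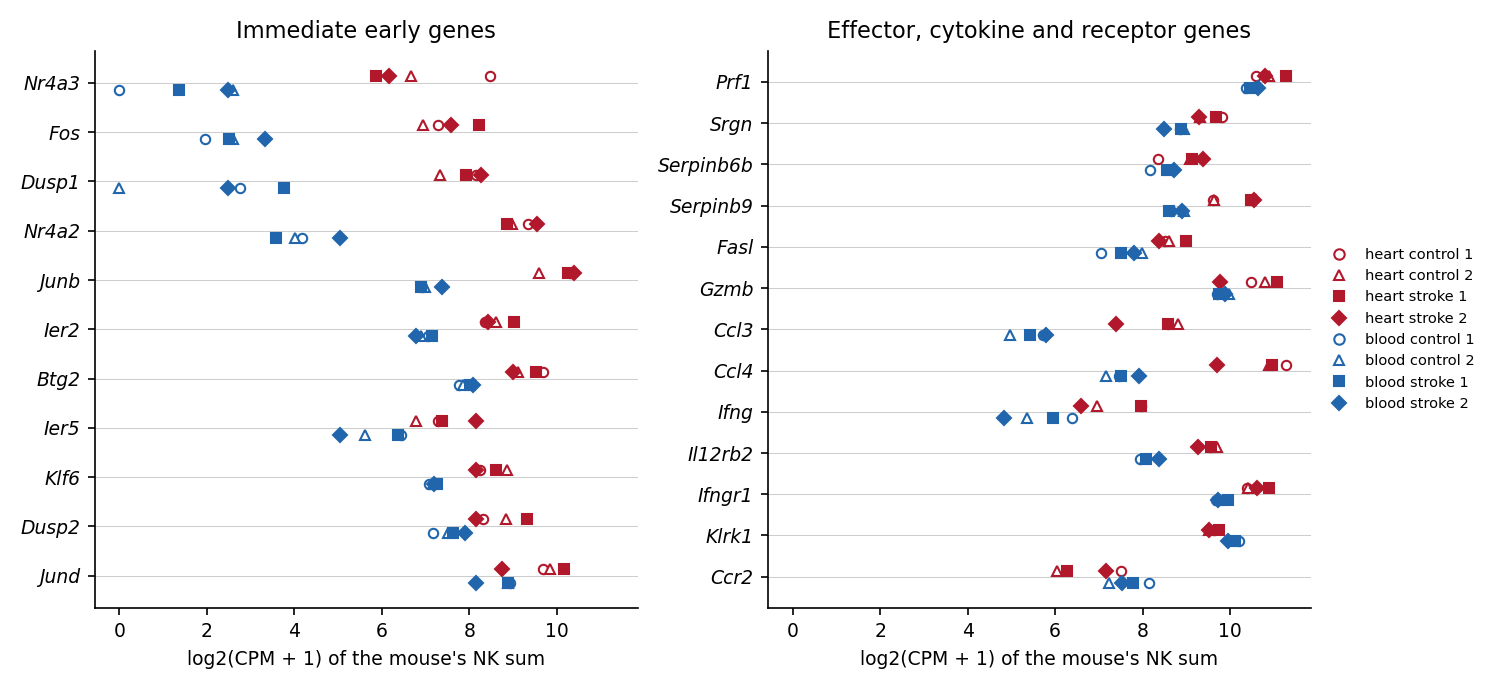
Levels of immediate early genes (left) and of effector, cytokine and receptor genes (right) in NK cells, as log2(CPM + 1) of the summed UMIs of each mouse, heart in red and blood in blue, control mice open and stroke mice filled. For Nr4a2, Junb, Fos, Dusp1 and Nr4a3 the red and blue points are separate, whereas for Gzmb the heart value of stroke mouse 2 (864 CPM) falls among the blood values.

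The immediate early signal was spread over most of the cells. After thinning to 1000 UMIs per cell, the 23 genes together had medians of 5, 4, 5 and 5 UMIs in heart NK cells and of 1 in blood NK cells of each mouse. C1q macrophages of the same hearts had medians of 13.5, 16, 14 and 16 UMIs. Heart cells without any such UMI made up 3.45%, 4.17%, 0% and 4%, against 23.7%, 23.1%, 20% and 26.6% in blood, where the 0% stands for 0 of 60 cells, which allows a share of up to 5%. Thinning left out 1 heart cell each of control mouse 1 and stroke mouse 2 with fewer than 1000 UMIs. Nr4a2 was detected in 37.9%, 29.2%, 35% and 36% of heart NK cells, in 2.15%, 2.48%, 1.58% and 1.56% of blood NK cells and in 1.75%, 1.27%, 1.63% and 1.47% of C1q macrophages of the same hearts. Without thinning the heart NK shares for Nr4a2 were 63.3%, 54.2%, 56.7% and 57.7%. Fos had the other distribution, with 13.8%, 10.4%, 10% and 12% of heart NK cells and 70.6%, 74.6%, 70.9% and 75.6% of C1q macrophages, so that its share in NK cells was the lower of the pair. Junb was detected in 72.4%, 41.7%, 61.7% and 64% of heart NK cells and 62.7%, 60.2%, 62.5% and 64.3% of macrophages. Blood NK cells from the same droplet runs had 0%, 0.826%, 0% and 0% for Fos and 15.1%, 15.7%, 13.2% and 14.1% for Junb, where 0 of 93, 190 and 64 cells allows up to 3.23%, 1.58% and 4.69% for Fos. The part of macrophage RNA in the Fos level of heart NK cells was not tested.

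**Figure D3:**
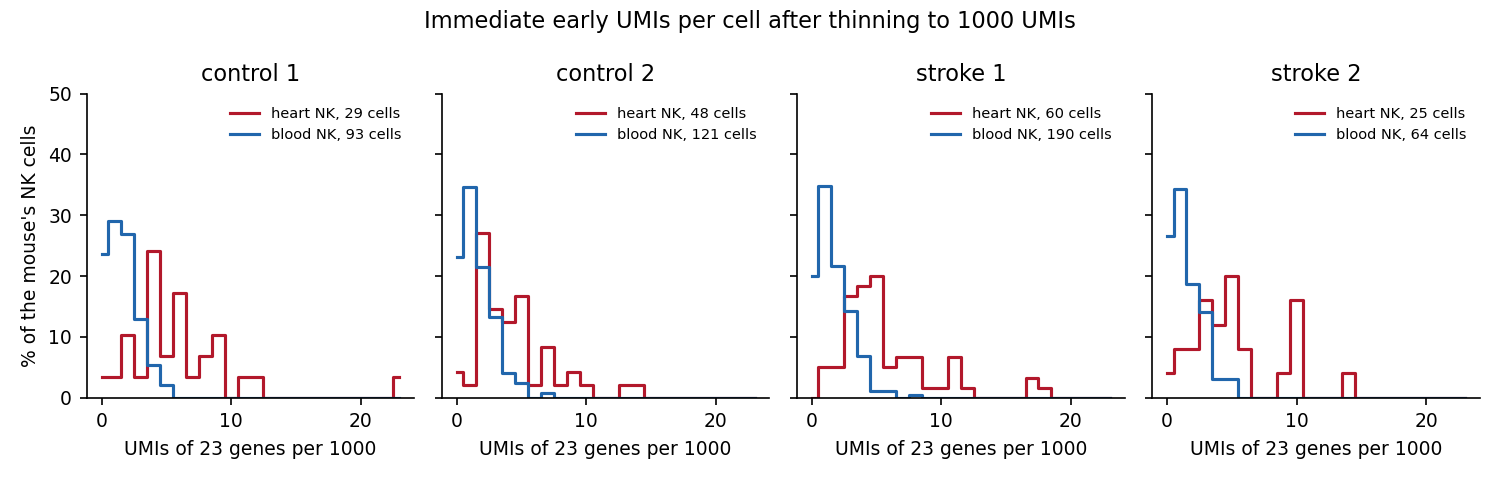
Percent of NK cells by their UMIs of the 23 immediate early genes after thinning each cell to 1000 UMIs, for each mouse, heart in red and blood in blue. Medians were 5, 4, 5 and 5 in the heart and 1 in blood, and a few heart cells reached 14 to 23.

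Upstream sequence is shown for the 4 immediate early genes with the smallest p among those with 1 window whose orientation could be checked against a transcript, so that shared letters can be read beside the values. The windows hold the 250 bases before the RefSeq start of the gene on build GRCm38.p6, 5′ to 3′ on the strand of the gene. Another annotation, GENCODE, puts the start of Dusp1 and Nr4a3 further upstream. By it the whole Dusp1 window and most of the Nr4a3 window lie inside the gene. Positions below are counted from the RefSeq start. Capitals mark matches on either strand to TGACG, to the cyclic AMP response element TGACGTCA, which contains TGACG, to the AP-1 site TGANTCA, to the CArG box or to the NF-kB site. Nr4a2 (chr2:57124004-57124253, minus strand), Dusp1 (chr17:26508473-26508722, minus strand), Fos (chr12:85473640-85473889, plus strand) and Nr4a3 (chr4:48045055-48045304, plus strand) read as follows.
Nr4a2: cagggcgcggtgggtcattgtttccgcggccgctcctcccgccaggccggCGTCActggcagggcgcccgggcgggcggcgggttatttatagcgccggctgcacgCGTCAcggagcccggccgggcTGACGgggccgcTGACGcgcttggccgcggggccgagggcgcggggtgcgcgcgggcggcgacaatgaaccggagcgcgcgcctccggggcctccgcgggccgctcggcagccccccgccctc
Dusp1: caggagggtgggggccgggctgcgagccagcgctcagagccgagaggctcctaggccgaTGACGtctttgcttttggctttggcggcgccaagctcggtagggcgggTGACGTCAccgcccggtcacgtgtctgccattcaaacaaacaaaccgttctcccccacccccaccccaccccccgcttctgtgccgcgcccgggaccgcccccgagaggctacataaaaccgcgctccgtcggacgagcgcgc
Fos: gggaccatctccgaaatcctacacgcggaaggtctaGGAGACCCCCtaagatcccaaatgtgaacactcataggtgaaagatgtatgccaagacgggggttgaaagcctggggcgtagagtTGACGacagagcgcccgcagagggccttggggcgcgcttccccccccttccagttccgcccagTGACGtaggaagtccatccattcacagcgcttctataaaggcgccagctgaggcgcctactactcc
Nr4a3: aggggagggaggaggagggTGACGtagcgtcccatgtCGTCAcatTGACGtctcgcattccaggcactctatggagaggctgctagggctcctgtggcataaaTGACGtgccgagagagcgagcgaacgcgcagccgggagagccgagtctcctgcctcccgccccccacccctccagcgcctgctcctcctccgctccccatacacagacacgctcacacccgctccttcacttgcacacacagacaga

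Matches to TGACG or its complement began 200, 144, 123 and 111 bases before the start of Nr4a2, 191, 143 and 140 before Dusp1, 129 and 66 before Fos and 231, 213, 205 and 147 before Nr4a3. In Dusp1 the last pair overlaps in a full TGACGTCA that begins at base 143, and the Fos window also holds an NF-kB match at base 214. Of the 147 genes higher in heart NK cells, 117 had a window, and TGACG occurred in 54 of them (46.2%), compared with 34.9% of the 2711 tested genes with a window and 19.8% of all 27025 windows. The full TGACGTCA was in 4.27%, 3.39% and 1.77% of these, TGANTCA in 5.13%, 5.24% and 7.82%, the NF-kB site in 13.7%, 10.7% and 8.23%, and the CArG box in 0.855%, 1.44% and 1.62%. TGACG was searched after the shares of the other 4 motifs and the letters of the Dusp1 and Fos windows had been seen. These shares were not tested, and a match shows letters, not binding.

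Tnfaip3, which encodes the NF-kB inhibitor A20, had 551, 296, 425 and 260.4 CPM in heart and 25.7, 22.6, 20.3 and 31.9 CPM in blood (4.01 ± 0.24, adjusted p = 4.23e-17). It was the 1 called gene of 5 tested in the NF-kB list. Tnfaip3 was low in blood and passed the filter through its heart counts, so that its direction is fixed in part by the filter. Nfkbia, which encodes the inhibitor I kappa B alpha, was not called, and its heart values of 646, 72.3, 387 and 178 CPM overlapped the blood values. Rgs1, the marker of type 1 innate lymphoid cells above and a regulator of G protein signalling that dampens chemokine receptors, had 749, 477, 501 and 462 CPM in heart and 22.9, 42.7, 24.99 and 50.2 CPM in blood (4.02 ± 0.21, adjusted p = 7.36e-19). Sik1 (4.49 ± 0.60), Litaf (3.799 ± 0.295), Crem (3.17 ± 0.29), Abcb1b (3.03 ± 0.32), Ppp1r15a (3.02 ± 0.42) and Fosl2 (2.99 ± 0.39) completed the 15 largest increases, with edgeR adjusted p from 2.34e-13 for Litaf to 8.42e-07 for Ppp1r15a. Sik1 encodes a kinase and Crem a transcription factor of the cyclic AMP response, and Ppp1r15a a phosphatase subunit of the stress response.

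Chemokine genes and Ifng were higher in heart NK cells. Of 15 cytokine and chemokine genes, 5 could be tested and 3 were called higher in the heart. Ccl3 and Ifng were low in blood and passed the filter largely through their heart counts. The count of 3 is therefore fixed in part by the filter. Ccl3 and Ccl4, which attract leukocytes, are made by activated NK cells. Ccl3 had 379, 448, 380.4 and 166 CPM in heart and 51.5, 30.2, 42.2 and 54.7 CPM in blood (3.05 ± 0.23, adjusted p = 1.23e-13). Ccl4 had 2472, 1886, 1972 and 828 CPM in heart and 174, 143, 181 and 242 CPM in blood (3.33 ± 0.36, adjusted p = 0.0176), and stroke mouse 2 was the lowest heart for both. Ifng, the gene of interferon gamma, had 249.7, 123, 247 and 94.7 CPM in heart and 82.9, 40.2, 60.9 and 27.4 CPM in blood, and the lowest heart value of 94.7 CPM was just above the highest blood value of 82.9 CPM. The log2 fold change of Ifng was 1.77 ± 0.25 (SE), with an adjusted p of 7.75e-07. Ccl4 was not called without stroke replicate 1 (adjusted p = 0.0523). Xcl1, the gene of lymphotactin, reached 577, 36.1, 387 and 189 CPM in heart and 48.6, 60.3, 57.8 and 22.8 CPM in blood and was not called (adjusted p = 0.184). A single cell held 43 of the 67 Xcl1 UMIs of control mouse 1.

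Cytotoxic granule genes were partly higher. Of 20 genes, 12 were tested and 5 were called higher in heart NK cells, with none lower, and the median over the 12 was 0.47 on the log2 scale. Serpinb9, which encodes the inhibitor that protects killer cells from their own granzyme B, had 775, 795, 1420.3 and 1503 CPM in heart and 398, 490.0, 390.4 and 474 CPM in blood. The log2 fold change of Serpinb9 was 1.33 ± 0.16 (SE), with an adjusted p of 2.49e-05. Fasl, the ligand of the death receptor Fas, had 362, 390.2, 507 and 331 CPM in heart and 132, 254, 181 and 223 CPM in blood (1.07 ± 0.17, adjusted p = 1.13e-05). Srgn, the gene of serglycin, the proteoglycan on which granzymes and perforin are stored, had 904, 636, 818 and 627 CPM in heart and 460.5, 495, 469 and 356 CPM in blood (0.74 ± 0.12, adjusted p = 3.63e-05).

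Prf1 rose less, from 1321, 1399.6, 1404 and 1587 CPM in blood to 1541, 1907, 2485 and 1787 CPM in heart (0.45 ± 0.09, adjusted p = 0.00044), and was not called without stroke replicate 1 or by DESeq2 (adjusted p = 0.127 and 0.0649). Serpinb6b, another serpin gene of the list, rose by 0.49 ± 0.14 (adjusted p = 0.0210). Its call was lost without control replicate 2, stroke replicate 1 or stroke replicate 2 (adjusted p = 0.0861, 0.182 and 0.0808) and under DESeq2 (0.307). Gzmb, the gene of granzyme B, had 1429.5, 1777, 2156 and 864 CPM in heart and 832, 1010.1, 864 and 949 CPM in blood and was not called (adjusted p = 0.181). It was called without stroke replicate 2 (7.24e-12), without control replicate 2 (0.00138) and without stroke replicate 1 (0.0135, adjusted p of edgeR in each case). The genes that set the gate had these levels: Gzma 8767, 17615, 17944 and 14025 CPM in heart and 13153, 15243, 16301 and 15291 CPM in blood, Nkg7 2601, 3078, 3183 and 3314 and 3160.3, 3086, 3084 and 2987 CPM, and Ccl5 18093, 25108, 27828 and 24086 and 19814, 24070.2, 24928 and 27166 CPM.

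In the lists of inhibitory and of activating receptors 1 gene each was called. Over all genes tested 4.35% were called higher and 1.06% lower, and single calls in such short lists say little about receptors as a group. NK cells weigh signals of activating receptors, such as NKG2D, against those of inhibitory receptors, such as the Ly49 family encoded by Klra genes. Of 17 inhibitory receptor genes, 8 were tested and Klrb1b alone was called, at 439, 383, 399 and 604 CPM in heart and 160.2, 286, 219 and 214 CPM in blood (1.00 ± 0.16, adjusted p = 2.03e-05). Of 16 activating receptor genes, 11 were tested and 1 was called, with a list median of -0.35. Klrk1, which encodes NKG2D, fell from 1184, 1060.4, 1103 and 985 CPM in blood to 792, 737, 856 and 734 CPM in heart (-0.47 ± 0.10, adjusted p = 0.00120), and the heart lay below blood in each mouse. DESeq2 gave Klrk1 an adjusted p of 0.0727. Ncr1, a gate gene that encodes NKp46, had 784, 1119.9, 818 and 899.5 CPM in heart and 1381, 1447, 1373 and 1414 CPM in blood.

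The Klra genes varied from cell to cell in both organs. After thinning, Klra9 was detected in 37.9%, 43.8%, 45% and 44% of heart NK cells, Klra3 in 34.5%, 20.8%, 21.7% and 28% and Klra7 in 13.8%, 27.1%, 30% and 40%. Cells with at least 2 Klra genes made up 65.5%, 39.6%, 58.3% and 52.0% in heart and 58.1%, 59.5%, 55.8% and 64.1% in blood. Heart C1q macrophages with at least 2 numbered at most 1 per mouse. Klra genes are near-identical copies whose reads may be shared or lost in counting, so that levels of single members are uncertain.

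Among cytokine receptors, 2 of 10 tested genes were called, both higher in the heart. Il12rb2, the signalling chain for interleukin 12, had 741, 831, 755 and 615 CPM in heart and 246, 266, 270.2 and 328 CPM in blood (1.44 ± 0.14, adjusted p = 7.34e-11). Ifngr1, the ligand-binding chain for interferon gamma, had 1335, 1366, 1896 and 1562 CPM in heart and 824, 877, 996 and 844 CPM in blood (0.79 ± 0.09, adjusted p = 1.02e-08). For neither gene did the organs overlap. Among 14 tested adaptors and kinases, 2 were called lower. Tyrobp, which encodes the adaptor DAP12, was one of them (-0.24 ± 0.07, adjusted p = 0.0263), and Sh2d1a, which encodes SAP, the other (-0.79 ± 0.23, adjusted p = 0.0362). Tyrobp was lost without control replicate 1, stroke replicate 1 or stroke replicate 2 (adjusted p = 0.157, 0.0982 and 0.0771), and Sh2d1a without control replicate 1, control replicate 2 or stroke replicate 1 (adjusted p = 0.245, 0.0898 and 0.0674).

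Of 18 transcription factors tested between organs, 2 were higher and 2 lower in the heart. Irf8, a factor needed for the NK response to virus, had 1094, 1322, 1433 and 1029.7 CPM in heart and 452, 653, 489 and 547 CPM in blood (1.22 ± 0.11, adjusted p = 1.92e-11). Bhlhe40, which supports interferon gamma production in T cells, had 224, 224, 342 and 284 CPM in heart and 54.3, 47.7, 78.1 and 63.8 CPM in blood (2.13 ± 0.21, adjusted p = 2.68e-10). Ikzf3, the gene of Aiolos, was lower (-0.59 ± 0.13, adjusted p = 0.00181), and so was Zeb2, a factor of terminal maturation (-0.33 ± 0.10, adjusted p = 0.0435). Zeb2 was lost in 10 of 15 alternative analyses, among them those without control replicate 1, stroke replicate 1 or stroke replicate 2 (adjusted p = 0.0951, 0.0982 and 0.299). Eomes (-0.29 ± 0.17, adjusted p = 0.434) and Tbx21 (0.38 ± 0.16, adjusted p = 0.187) did not pass the test.

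Of 15 tested genes of circulation and homing, 1 was called lower, beside 1.06% called lower over all genes tested. This was Ccr2, the receptor for CCL2, with 181, 65.03, 76.1 and 142 CPM in heart and 280.3, 148, 219 and 182 CPM in blood (-0.93 ± 0.22, adjusted p = 0.00369). Without stroke replicate 1 Ccr2 was not called (adjusted p = 0.141). Klf2 (0.36 ± 0.15, adjusted p = 0.259) and S1pr5, a receptor for exit from tissues (-0.40 ± 0.19, adjusted p = 0.285), did not pass. Maturation genes gave 1 call in each direction of 11 tested, Irf8 and Zeb2, and of 3 tested genes of immature NK cells none was called. Ly6c2 spread widely, with 224, 556, 697 and 284 CPM in heart and 495, 229, 236 and 123 CPM in blood, and control mouse 1 was the 1 mouse with the higher value in blood.

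Of 8 tested heat shock genes, Hspa5, an endoplasmic reticulum chaperone (0.62 ± 0.13, adjusted p = 0.00147), Dnaja1 (0.43 ± 0.13, adjusted p = 0.0426) and Hsp90ab1 (0.33 ± 0.09, adjusted p = 0.0156) were higher. Dnaja1 was lost without stroke replicate 1 (adjusted p = 0.535) and Hsp90ab1 without control replicate 2 or stroke replicate 2 (adjusted p = 0.111 and 0.0631). Hspa1a, an inducible member, had 0, 0, 6.34 and 0 CPM in the heart. None of 8 interferon-stimulated genes, 11 glycolysis genes, 19 oxidative phosphorylation genes or 5 cell cycle genes was called. All 8 interferon-stimulated genes had a negative log2 fold change, from -0.41 to -0.06 with a median of -0.26. The other lists were mixed, with 8 of 11, 8 of 19 and 2 of 5 genes positive. Under DESeq2 neither Dnaja1 nor Hsp90ab1 was called (adjusted p = 0.535 and 0.292). Of 80 ribosomal protein genes, 3 were called lower, Rplp0 (-0.36 ± 0.08, adjusted p = 0.00142), Rpl29 (-0.35 ± 0.10, adjusted p = 0.0227) and Rpl39 (-0.28 ± 0.08, adjusted p = 0.0232), and the list median was -0.14. Over all genes tested 5.41% were called, 1.06% of them as lower. Rpl29 was lost without control replicate 2 or stroke replicate 1 (adjusted p = 0.11 and 0.134), and Rpl39 also without control replicate 1 (0.0718, against 0.18 and 0.0724 for the other mice).

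The 15 largest decreases were smaller than the largest increases. Cmah, an enzyme of sialic acid synthesis, had 51.7, 50.6, 31.7 and 35.5 CPM in heart and 152, 87.9, 74.96 and 123 CPM in blood (-1.30 ± 0.32, adjusted p = 0.00576), and St3gal4, a sialyltransferase, 138, 101, 76.1 and 82.8 and 186, 171, 164 and 278 CPM (-0.95 ± 0.22, adjusted p = 0.00433). Apobec3, an antiviral cytidine deaminase, had 68.9, 101, 82.4 and 59.2 CPM in heart and 154, 163, 166 and 178 CPM in blood (-1.03 ± 0.24, adjusted p = 0.00345). The other 12 were Gm44148, Gm16341, Gm26827, Trim14, Mrpl24, Gm12216, Ccr2, Pced1b, Elk3, Rcsd1, Mrps21 and Tspan32, with log2 fold changes from -2.57 for Gm44148 to -0.82 for Tspan32. Heart sums of Gm44148 held 6 UMIs in all. Of these 15, 9 were lost in edgeR when a mouse was left out. Besides Ccr2, these were Gm12216 and Elk3 without stroke replicate 1 (adjusted p = 0.107 and 0.328) and St3gal4 without stroke replicate 1 or stroke replicate 2 (0.0638 and 0.0675). Mrps21 was lost without control replicate 2 or stroke replicate 1 (0.109 and 0.0622), Rcsd1 without any mouse but control 1 (0.0553 to 0.150), and Mrpl24 without any mouse but control 2 (0.123 to 0.161). Pced1b and Tspan32 were lost without any mouse but stroke 1 (0.0718 to 0.164 and 0.0951 to 0.263), and each in 8 of 15 alternatives.

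**Figure D4:**
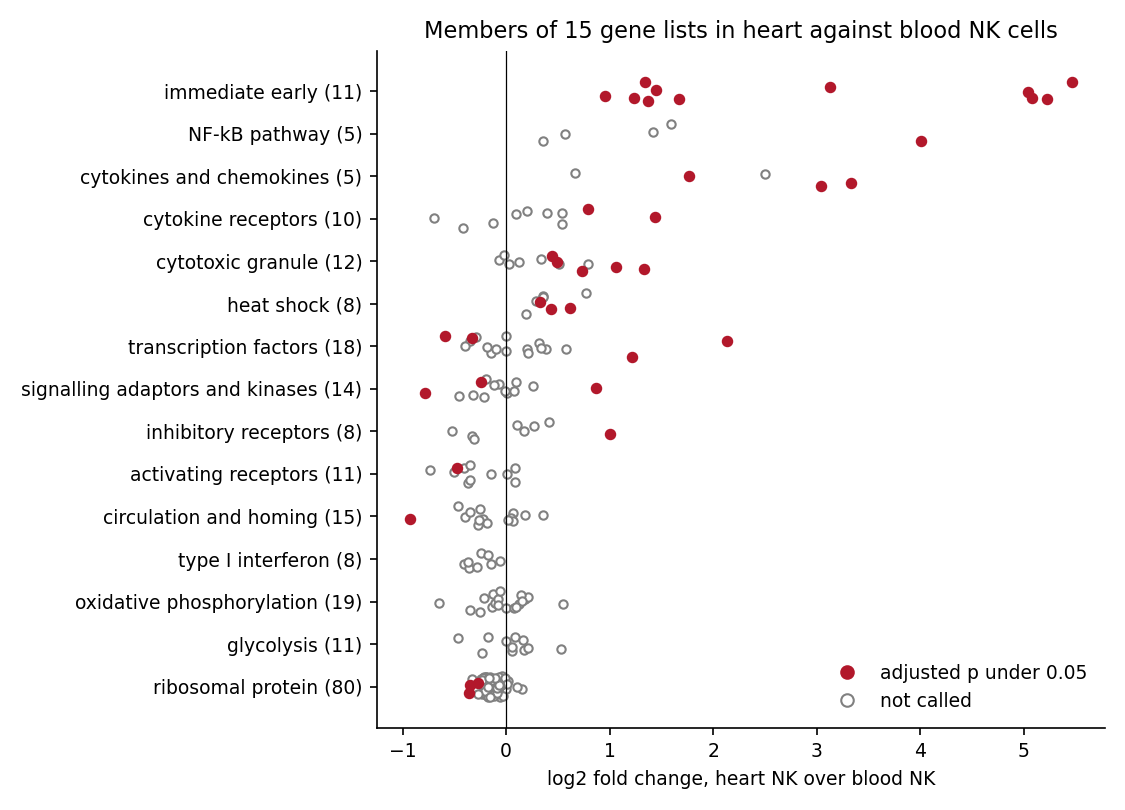
Log2 fold change of heart over blood NK cells for the tested members of 15 gene lists, with the number tested in parentheses, filled where the adjusted p was under 0.05. All 11 immediate early genes lie to the right of 0 and are filled, and the 80 ribosomal protein genes cluster around the list median of -0.14.

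The same heart and blood comparison was made in B cells of these libraries, a lymphocyte type with no cytotoxic program, to see which differences NK cells shared. This comparison was added after the NK result had been seen. The B cell gate did not separate subsets. A different mix of B cells in heart and blood therefore cannot be told apart from a difference between organs. B cells numbered 134, 164, 59 and 143 in heart and 116, 53, 78 and 931 in blood, and 664 of 6292 genes (10.6%) differed between organs in them, 408 of them higher in the heart (6.48%). Of the 147 genes higher in heart NK cells, 78 were also called higher in heart B cells and 3 lower. The organ difference itself differed between the cell types in 130 of 6292 genes (2.07%), with NK higher in 38 (0.604%) and NK lower in 92 (1.46%). Among the 147 genes it was larger in NK cells for 24 and smaller for 2, Gem and Nr4a2. Since the 147 were chosen by their difference in NK cells, that balance is fixed in part by the choice.

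Litaf rose by 3.78 in NK cells and 1.04 in B cells on the log2 scale, a difference of 2.74 ± 0.37 (SE, adjusted p = 3.41e-06), and Sik1 by 4.55 and 1.73 (difference 2.82 ± 0.54, adjusted p = 0.00137). Tnfaip3 also differed (1.42 ± 0.40, adjusted p = 0.0431), as did Ifngr1 (0.75 ± 0.18, adjusted p = 0.0130). Nr4a2 was higher in the heart in both, by 5.02 in NK cells and 8.35 in B cells, a difference of -3.33 ± 0.79 (adjusted p = 0.0112). For Fos the difference was 0.80 ± 0.48 (adjusted p = 0.609), for Junb -0.54 ± 0.19 (adjusted p = 0.146) and for Dusp1 1.29 ± 0.53 (adjusted p = 0.28), and none of these 3 passed. Heart and blood suspensions were prepared separately before the cells were pooled, so that preparation and organ cannot be told apart in either cell type.

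**Figure D5:**
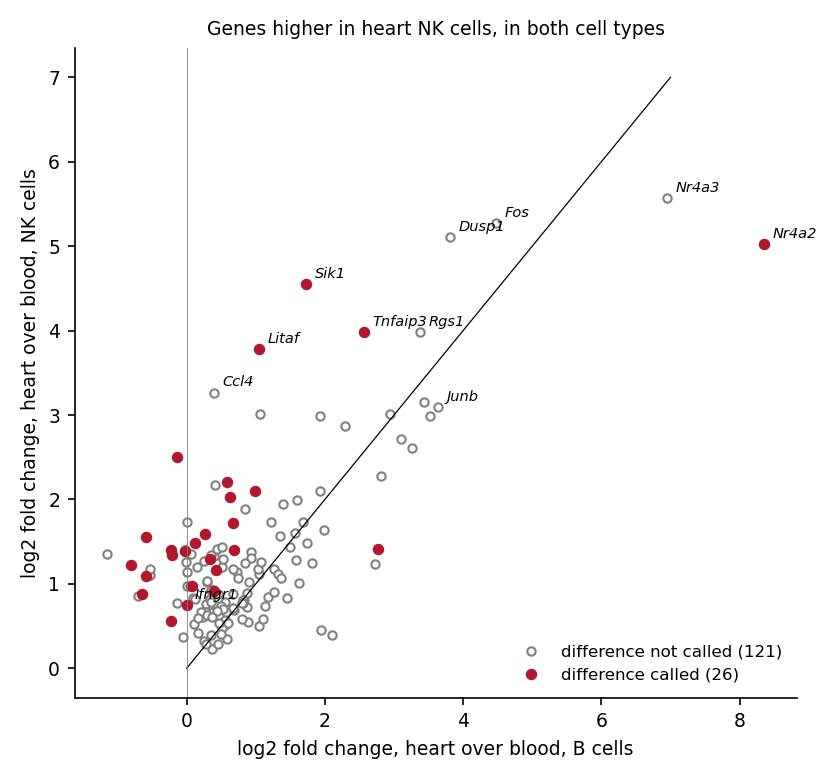
Log2 fold change of heart over blood for the 147 genes higher in heart NK cells, in B cells (x axis) and NK cells (y axis), filled where the difference between the cell types had an adjusted p under 0.05. The line marks equal change. Nr4a2 lies below it at 5.02 in NK cells and 8.35 in B cells, and Litaf and Sik1 lie above it.

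Between stroke and control marrow no gene of heart NK cells was called, 0 of 2590 tested (0%), by edgeR or by DESeq2, and 93 genes (3.59%) had an unadjusted p under 0.05 in edgeR. The values of 2 control and 2 stroke hearts did not overlap in 797 genes (30.8%), 417 with stroke above (16.1%) and 380 with stroke below (14.7%). On simulated counts of this size the test recovered 20% of genes changed 2-fold and 73% of those changed 4-fold, among 2576 genes, so that most 2-fold differences would be missed with these 2 mice per group and counts. When a mouse was left out, its group rested on 1 mouse, and some genes were then called. Those called without control replicate 2 included Gzmc and S100a9. In control mouse 1, the remaining control, 1 barcode held all 200 Gzmc UMIs and another held 167 of the 170 S100a9 UMIs.

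Serpinb9 had the smallest p in this comparison and is named for that reason after its values were seen. Its heart levels were 775, 795, 1420.3 and 1503 CPM from 90, 110, 224 and 127 UMIs, and its blood levels were 398, 490.0, 390.4 and 474 CPM. Both stroke hearts lay above both control hearts, which the choice by the smallest p made likely. Over all genes tested, the groups did not overlap in 30.8%. The blood values of the groups overlapped. The values that follow use the same heart counts and are no separate evidence. The log2 fold change of stroke over control was 0.88 ± 0.20 (SE), with an edgeR adjusted p of 0.997, and the difference of that fold change between heart and blood was 0.95 ± 0.24 (adjusted p = 0.542). It was detected in 62.1%, 54.2%, 68.3% and 72% of heart NK cells after thinning, in 26.9%, 36.4%, 31.1% and 26.6% of blood NK cells and in 1.75%, 0.317%, 1.00% and 0.977% of C1q macrophages.

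No gene of any list was called between donor groups. Over all genes tested, the groups did not overlap in 30.8%, and the counts that follow are close to that share or below it for the cytotoxic (4 of 12), circulation (5 of 15) and ribosomal (19 of 80) lists. Of 12 tested cytotoxic genes, stroke lay above without overlap in 3 and below in 1, with a list median of 0.22 against -0.01 over all genes. Of 13 tested immediate early genes, 2 lay above, Fos (0.86 ± 0.36, adjusted p = 0.997) and Ier5 (0.70 ± 0.39, adjusted p = 0.997), and Nr4a3 lay below (-1.82 ± 0.57, adjusted p = 0.997). Of 80 ribosomal protein genes, 12 lay above and 7 below, and of 15 genes of circulation 1 lay above and 4 below. Of 5 tested cytokine genes, none was without overlap.

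The interaction of donor group and organ gave no call among 4070 genes (0%) by edgeR or DESeq2, and 173 genes (4.25%) had an unadjusted p under 0.05 in edgeR. The heart and blood difference of NK cells described above was therefore not shown to depend on the marrow donor. For Nr4a2 the difference between groups in that fold change was -0.12 ± 0.60, for Junb 0.24 ± 0.30, for Ccl4 -0.90 ± 0.53 and for Ifng 0.37 ± 0.51, with an edgeR adjusted p of 0.999 for each. Without stroke replicate 1, Ccl4 was called in both the donor comparison and the interaction, with the stroke side resting on stroke mouse 2 alone (log2 fold changes of -1.40 and -2.01).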

How the data were processed

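Single-cell RNA libraries of 4 mice were deposited by the authors as 1 matrix of raw UMI counts per gene and barcode, with the hashtag counts beside it. Cell Ranger 7.1.0 and build mm10 are named per the submitters' processing notes. Counts were used as deposited and summed per mouse and organ over the NK gate. Sums were tested with edgeR 4.0.16 in R 4.3.3 (TMM scaling, filterByExpr, robust quasi-likelihood fit, Benjamini-Hochberg threshold 0.05), fitted across all genes: 4 heart sums for the donor groups, 8 sums with the mouse as a block for the organs and the interaction. Standard errors are the absolute log2 fold change divided by the root of F. The 15 gate genes, 6 sex-linked genes and 2 transgenes stayed in the library sizes and out of the tests. CPM values use the TMM scaling of the 8 sums. B cells, with at least 3 Cd79a and Cd79b UMIs, entered a fit of 16 sums. Shares of cells came from cells thinned to 1000 UMIs, and intervals cover counting error only. No doublet caller was run. Hashtags remove pairs across organs, the macrophage limit removes pairs with macrophages, and 1 alternative left out barcodes above 3 times the median UMIs.

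The labels give separate recipients as replicates. The members, the gene lists and the B cell comparison were chosen with earlier results of these data known. Named genes were the 15 largest increases and 15 largest decreases among called genes with 1 direction in all 4 mice, the called members of each list, and the 2 to 4 most abundant members of each list. DESeq2 1.42.0, filters, scaling, gate limits and leaving out each mouse were tried as alternatives. The procedure was tested on simulated data: for organs it recovered 82% of genes changed 2-fold and 92% of those changed 4-fold among 3345 genes, with 5 false calls. Simulated counts were drawn once, with a common dispersion for all genes and no differences between mice. That setting is simpler than the real data. Some genes are not reported here.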

Additional observations from a re-analysis of the deposited data

Results flagged for a closer look

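The heart and blood difference of 3 genes had opposite signs in the donor groups. Only the named genes were searched for this pattern, and its share over all genes tested was not counted. For each of the 3 the interaction did not pass the test (edgeR, adjusted p = 0.903 for Klra3 and 0.999 for Samhd1 and Mcm6). For Klra3, which encodes a Ly49 receptor with near-identical relatives, heart minus blood was 228 and 127 CPM in the control mice and -122 and -130 CPM in the stroke mice, with an interaction of -0.96 on the log2 scale. For Samhd1, a nucleotide hydrolase, it was 3.43 and 27.0 CPM against -68.5 and -30.3 CPM, with an interaction of -0.70. For Mcm6, a subunit of the replicative helicase, it was 26.1 and 11.9 CPM against -11.6 and -21.1 CPM, with an interaction of -0.69.

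The transgenes lay outside the tests. Heart NK cells of control mouse 1 held 80 UMIs of kgfp, against 0 in the other 3 mice, and its blood NK cells held 110. Heart NK cells of stroke mouse 1 held 780 UMIs of agfp, and those of the other mice 20, 519 and 358, with 43, 1841, 2701 and 831 in blood NK cells.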

How the results depend on the processing

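The organ result kept its direction for all 59 named genes that were called, and 31 of them were called in every one of the 15 alternatives that gave them an adjusted p, 26 of 57 were lost under DESeq2, 8 of these only there, and 19 were lost when a mouse was left out. The count of 183 became 79 under DESeq2 and 416 without the macrophage limit, and 130 to 203 when a mouse was left out. The donor count of 0 became 3 without the filter on low counts, 4 without the macrophage limit and 1 to 21 when a mouse was left out. The interaction count of 0 became 2 without the macrophage limit and 1 to 10 when a mouse was left out. Nfkbia, at -0.23 between donor groups, ranged from -1.08 to 2.05 when a mouse was left out and turned to 2.05 without control replicate 1 (edgeR, adjusted p = 0.014). The donor difference in the heart share ranged from -1.65 to 0.0536 percentage points when a mouse was left out and turned to 0.0536 without stroke replicate 2. Causes were not tested. The labels do not say whether mice with the same replicate number were handled as pairs, and 2 mice per group cannot settle it. Deviations of control mouse 1 and stroke mouse 1 had a correlation of -0.0655 over 2590 genes. A fit with the replicate number as a block gave 3 donor calls, and a crossed block gave 0. With 84216 to 160307 UMIs per heart sum, low genes were not tested, and 12 of 23 immediate early genes were among them.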

Other observations

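A single heart NK cell of control mouse 1, with 10080 UMIs, 0 macrophage UMIs, 15 UMIs of the NK receptor genes of the gate and 0 Cd3 UMIs, held genes that were rare in the other members. It carried all 200 Gzmc UMIs of that mouse's heart NK cells, against 0, 0 and 2 in the other mice. Gzmc encodes granzyme C. The cell also held 10 UMIs of Il2ra, the alpha chain of the interleukin 2 receptor, 12 of Pdcd1, which encodes PD-1, 19 of Egr3, 10 of 12 Csf1 UMIs, 43 of 67 Xcl1 UMIs and 19 of 23 Inpp4b UMIs. It was chosen after its values were seen, and with 1 cell there is no replicate of it. In stroke mouse 1, 32 of the 61 Xcl1 UMIs came from 1 cell.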
